A study of Mus musculus with 12 samples.

Results

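The genes described here make up the major histocompatibility complex class II pathway as it is read out in intestinal epithelium: H2-Aa, H2-Ab1, H2-Eb1, Cd74, H2-DMa, H2-DMb1 and Ciita. They were chosen by name, as a list that uses no measured value but was drawn up with earlier results of these data known, and are 7 of the 48526 genes counted in each library. Class II molecules are surface dimers of an alpha and a beta chain that show peptides from the endosome to helper T cells. The invariant chain Cd74 guides new dimers to the endosome and plugs their groove, H2-DM removes the last fragment of that plug and edits the peptide, and Ciita, a coactivator that binds no DNA itself, switches these genes on together. Professional antigen-presenting cells make class II molecules constitutively, and enterocytes are known to make them in the small intestine under interferon-gamma.

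RNA came from epithelial cells released with EDTA from the small intestine of 4 adult female mice aged 3 months. KAT2A/KAT2B DKO mice (2 animals) lost the lysine acetyltransferases Kat2a and Kat2b through tamoxifen at 100 mg/kg, given intraperitoneally on 4 days, and the 2 control mice received the ethanol and corn oil vehicle alone. Cells were taken 2 days after the last dose, and each animal gave an input library and a pulldown with each of the double-stranded RNA antibodies J2 and K1, so 12 libraries form 6 groups of 2. The titles call the cells whole intestine, while the extraction protocol names the proximal small intestine. Genotype and tamoxifen changed together and cannot be told apart. The Cre driver, the floxed alleles and the strain are not given in the sources used here. The 2 animals of a group were different mice, so p-values compare 2 mice with 2.

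The input libraries held 10307281 to 11474107 gene counts. Control pulldowns held 13308021 to 16139531 and DKO pulldowns 2220291 to 5826361. The DKO pulldown libraries of the 2 animals stood apart from each other: the Pearson correlation of log2 CPM (counts scaled to library size) across genes was 0.840 in DKO J2 and 0.919 in DKO K1, against 0.982 or more in the other groups. The comparisons that use DKO pulldowns are therefore also given without each DKO animal, as counts of genes called and, for the main genes, as values. Kat2b, one of the deleted genes, had 26.6 ± 2.72 CPM in control input and 9.11 ± 1.03 in DKO input (SD, n = 2), and Kat2a had 17.1 ± 0.872 and 8.94 ± 2.74. Both were called lower in DKO input, with adjusted p = 0.000632 and 0.0205 (edgeR). The epithelial label was checked against its markers. The 12 epithelial genes summed to 7478 to 7687 CPM in control input and to 6857 to 8323 in DKO input, and none was at 0.

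On chromosome 17 (GRCm38, GENCODE M21), 5 of the genes lie within 197 kb: H2-DMa at chr17:34119541-34139101, H2-DMb1 at chr17:34153072-34160230, H2-Ab1 at chr17:34257689-34269419, H2-Aa at chr17:34282744-34287823 on the minus strand and H2-Eb1 at chr17:34305867-34316674. Ciita lies at chr16:10480059-10528418 (24 exon blocks). Exons of H2-DMa overlap those of Brd2, and exons of Ciita those of Dexi, both on the other strand. The counts were made without strand, so reads from such stretches cannot be assigned to one gene. Transcripts of H2-DMb1 and H2-DMb2 share 571 aligned bases at 97.02% identity, so the split of reads between them is uncertain.

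Class II promoters are known for an X box and a Y box at a fixed distance, the platform on which RFX, CREB and NF-Y assemble and to which Ciita is recruited. RefSeq promoter windows (GRCm38.p6) were used for 4 of the 7 genes: H2-Aa, H2-Eb1, H2-DMa and H2-DMb1. Cd74 was left out of this reading by choice, and no window was available for H2-Ab1 and Ciita. The 150 bases before the start are printed for the 3 of these 4 whose window holds both boxes. As a comparison they are also printed for H2-DMb2, a near copy of H2-DMb1 with almost no counts. Capitals mark the letters GNAACT, which lie in the X box, and TGATTGG, the Y box with its CCAAT element reversed, wherever the first is followed by the second on the same strand 20 to 45 bases on, start to start.
H2-Aa: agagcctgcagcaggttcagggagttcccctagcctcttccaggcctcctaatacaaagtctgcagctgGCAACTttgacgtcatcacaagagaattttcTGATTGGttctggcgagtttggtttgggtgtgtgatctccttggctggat
H2-Eb1: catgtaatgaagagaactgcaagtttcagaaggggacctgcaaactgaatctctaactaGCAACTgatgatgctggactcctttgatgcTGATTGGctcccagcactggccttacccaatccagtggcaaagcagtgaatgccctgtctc
H2-DMb1: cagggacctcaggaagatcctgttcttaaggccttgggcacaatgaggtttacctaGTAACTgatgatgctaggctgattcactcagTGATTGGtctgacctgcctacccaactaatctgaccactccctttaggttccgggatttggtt
H2-DMb2: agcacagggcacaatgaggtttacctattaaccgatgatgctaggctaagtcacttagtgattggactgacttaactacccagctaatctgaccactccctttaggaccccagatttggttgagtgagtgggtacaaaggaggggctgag
The windows are chr17:34287824-34287973 (minus strand), chr17:34305717-34305866, chr17:34153041-34153190 and chr17:34145099-34145248 (plus strand). The start-to-start distance was 31 bases in H2-Aa, 30 in H2-Eb1 and 31 in H2-DMb1, and the Y box began 50, 61 and 63 bases before the transcript start. Over the 250 bases before the start, on both strands, GNAACT occurred in 37.3% of 32851 RefSeq windows, TGATTGG in 7.23% and the spaced pair in 0.204%. The H2-DMb2 window held TGATTGG but not GNAACT. Neither H2-DMa window, ending at chr17:34122831 and chr17:34125517, held either. The gene runs on to chr17:34139101, and other possible starts of H2-DMa were not searched. The absence therefore covers these places only. The letters were chosen after these windows had been seen, and a match describes the sequence only.

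In input RNA every one of the 7 genes was lower in DKO than in control, and all 7 passed the test, against 17.1% of the 15088 genes tested that were called lower and 35.9% called in either direction. The median log2 fold change of the 7 was -1.70, against -0.00 over all genes tested. The fall ranged from 14.4-fold for the transactivator Ciita to 1.89-fold for the invariant chain Cd74. In bulk RNA, fewer class II-positive cells and less class II RNA per cell cannot be told apart. In a single fit of all 12 libraries, whose spread includes the uneven DKO pulldowns, 4 of the 7 passed: Ciita, H2-Eb1, H2-DMa and H2-DMb1.

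Ciita had 998 and 826 counts in the control input libraries and 52 and 68 in the DKO ones. As CPM these were 79.4 and 59.5 against 4.3 and 5.0. The groups were far apart, with a log2 fold change of -3.85 ± 0.19 (SE) and adjusted p = 5.69e-05 (edgeR). This was the largest change of the 7.

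Among the chains of I-A and I-E, H2-Ab1, the beta chain of I-A, had 779 and 691 CPM in control input and 217 and 197 in DKO input. Its alpha partner H2-Aa had 729 and 602 CPM against 266 and 234. H2-Eb1, the beta chain of I-E, had 245 and 225 CPM against 64.3 and 76.3. In all 3 chains the higher DKO library stayed far below the lower control library. Groups of 2 and 2 often separate by chance, since an exact two-sided permutation test cannot go below p = 0.333. The share of all genes whose groups separate was not counted, so separation here and below only describes the values. The log2 fold changes were -1.79 ± 0.14 for H2-Ab1, -1.70 ± 0.14 for H2-Eb1 and -1.37 ± 0.16 for H2-Aa, with adjusted p from edgeR of 0.000223, 0.000246 and 0.000726.

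The peptide editor, whose chains are encoded by H2-DMa and H2-DMb1, fell as well. H2-DMa had 61.0 and 46.9 CPM in control input and 11.7 and 15.1 in DKO input, and H2-DMb1 had 64.1 and 61.3 against 17.8 and 25.7. The groups did not overlap for either chain. The log2 fold change was -1.97 ± 0.19 for H2-DMa (adjusted p = 0.000364, edgeR) and -1.48 ± 0.18 for H2-DMb1 (adjusted p = 0.000882). With all libraries thinned to the count total of the shallowest, H2-DMb1 no longer passed.

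Cd74, the invariant chain (chr18:60803848-60812652), was the most abundant of the 7 and changed least. It had 1594 and 1353 CPM in control input and 830 and 684 in DKO input, again without overlap. The log2 fold change was -0.92 ± 0.17, with adjusted p = 0.00565 (edgeR).

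**Figure D1:**
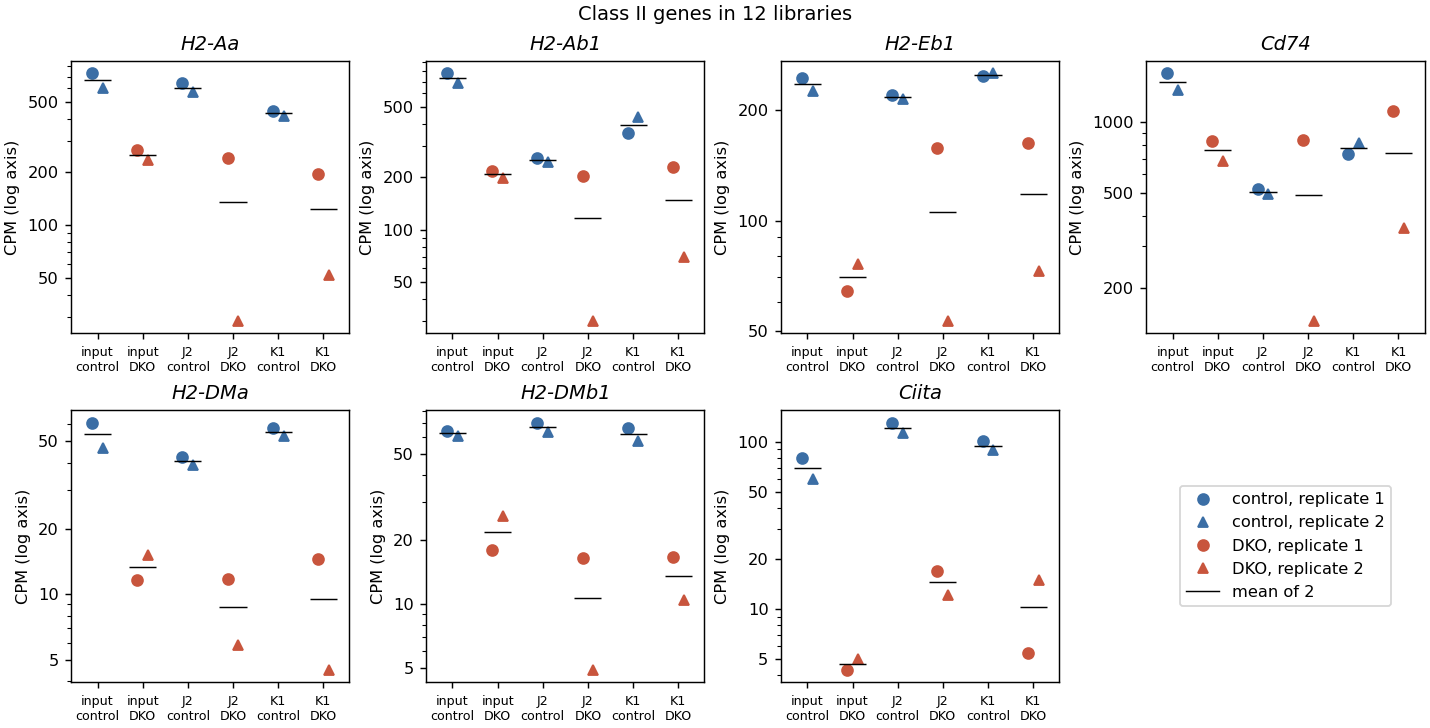
Scaled read counts (CPM, log axis) of the 7 class II genes in each of the 12 libraries, by kind of library and genotype; circles and triangles are the first and second animal of a genotype and bars are means of 2. In input the DKO points lie below the control points in all 7 panels, while in the pulldowns the DKO animals are spread widely, as for H2-Aa at 242 and 28.7 CPM in J2.

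In the J2 pulldown, H2-DMa, H2-DMb1 and Ciita were lower in DKO, 3 of the 7, against 6.16% of genes called lower and 12.2% called in either direction. Ciita had 130 and 112 CPM in the control pulldowns, and 16.8 and 12.03 in the DKO ones. H2-DMb1 had 70.5 and 63.7 against 16.3 and 4.9, and H2-DMa 42.3 and 39.0 against 11.7 and 5.9. For these 3 genes both DKO libraries lay below both control libraries by a wide margin. The log2 fold changes were -3.02 ± 0.35, -2.62 ± 0.55 and -2.16 ± 0.41, with adjusted p of 0.0287, 0.0432 and 0.0382 (edgeR).

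The I-A and I-E chains and Cd74 did not pass in J2, and their DKO libraries were uneven. H2-Aa had 641 and 571 CPM in control J2 against 242 and 28.7 in DKO J2, a log2 fold change of -2.17 ± 0.96 (adjusted p = 0.172, edgeR). H2-Ab1 had 257 and 243 CPM against 202 and 30.2, and H2-Eb1 had 220 and 214 against 158 and 53.4. Both DKO libraries were below both control libraries for these chains, yet the 2 DKO animals differed by 8.44 times for H2-Aa, 6.69 times for H2-Ab1 and 2.96 times for H2-Eb1. Cd74 overlapped between the groups, with 519 and 498 CPM in the control libraries against 840 and 146 in the DKO ones. Its log2 fold change was -0.04 ± 0.82 (adjusted p = 0.975, edgeR).

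Which DKO animal was kept set the direction for Cd74 in J2. Without DKO replicate 2, the shallower library, its log2 fold change was 0.78, and without DKO replicate 1 it was -1.72. Without replicate 2 and without replicate 1, Ciita was at -2.79 and -3.25, H2-DMb1 at -1.98 and -3.68, and H2-DMa at -1.73 and -2.71. H2-Aa was at -1.26 and -4.32, H2-Ab1 at -0.25 and -2.97, and H2-Eb1 at -0.40 and -1.95. These fits assume that the single DKO library varies like the controls, and they called many more genes of any kind: without replicate 2 they called 6 of the 7, with Cd74 higher, against 54.0% of all genes, and without replicate 1 all 7, lower, against 59.0% of all genes in either direction and 30.8% lower. Leaving out a control animal instead left 1 control library in J2, and such a fit called few genes of any kind. The whole epithelial marker list summed to 4235 CPM in DKO J2 replicate 2 and to 13491 in replicate 1, against 5438 to 5786 in control J2. In K1 it summed to 7115 to 15449 CPM in DKO and to 8269 to 10023 in control. Its part in the class II values was not tested.

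In the K1 pulldown the same 3 genes were called lower in DKO, against 13.9% of genes called lower and 27.1% called in either direction. Ciita had 101 and 88.8 CPM in the control pulldowns, and 5.5 and 14.9 in the DKO ones. H2-DMa had 57.7 and 52.8 against 14.5 and 4.5, and H2-DMb1 had 66.4 and 57.6 against 16.6 and 10.4. The groups were apart for all 3, with log2 fold changes of -3.09 ± 0.49, -2.30 ± 0.43 and -1.995 ± 0.30 and adjusted p of 0.00622, 0.0102 and 0.00532 (edgeR).

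The other 4 genes did not pass in K1. H2-Aa had 447 and 418 CPM in control K1 against 196 and 52.1 in DKO K1 (log2 fold change -1.65 ± 0.52, adjusted p = 0.0526, edgeR). H2-Ab1 had 356 and 438 against 226 and 69.3, and H2-Eb1 had 248 and 252 against 163 and 72.9. For these 3 chains the groups did not overlap, but none passed (adjusted p = 0.0887 for H2-Ab1 and 0.0984 for H2-Eb1, edgeR). Cd74 did overlap, at 734 and 812 CPM in the control libraries against 1113 and 357 in the DKO ones, with a log2 fold change of 0.08 ± 0.50. It was 0.69 without DKO replicate 2 and -0.87 without DKO replicate 1. In the same order, Ciita was at -3.96 and -2.42, H2-DMa at -1.77 and -3.36, and H2-DMb1 at -1.74 and -2.33. The chains H2-Aa (-0.99 and -2.81), H2-Ab1 (-0.65 and -2.27) and H2-Eb1 (-0.46 and -1.53) kept their sign. Of the 7, 6 were called without replicate 2, against 41.5% of all genes, and 7 without replicate 1, against 38.0%.

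**Figure D2:**
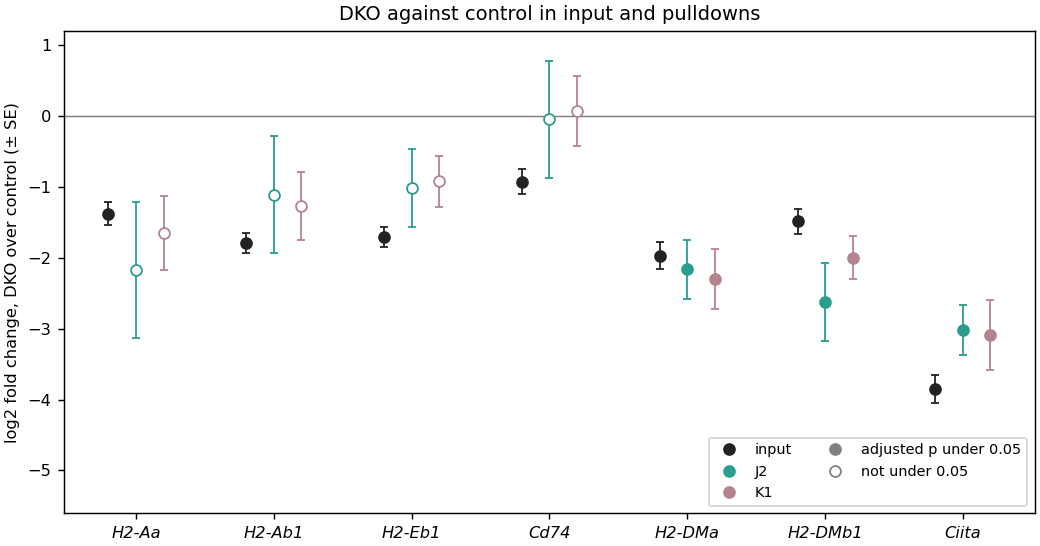
Log2 fold change of DKO over control (± SE from edgeR) for each class II gene in input, J2 and K1, with 2 libraries per genotype in each fit; filled points have an adjusted p under 0.05. All 7 input points are filled and below 0, and in both pulldowns only H2-DMa, H2-DMb1 and Ciita are filled.

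The balance between the invariant chain Cd74 and the chain H2-Ab1 is a ratio within a library, so library scaling does not touch it. Counts of Cd74 per kb of exon were 2.99 to 3.13 times those of H2-Ab1 in the control input libraries and 5.31 to 5.85 times in DKO input. In J2 the ratio was 3.10 to 3.13 in control and 6.36 to 7.40 in DKO, and in K1 it was 2.84 to 3.16 and 7.53 to 7.88. All 6 control libraries lay below all 6 DKO libraries, the uneven DKO pulldowns included. The split also held with H2-Aa in place of H2-Ab1, but not with H2-Eb1. In control input replicate 1, Cd74 had 949 and H2-Eb1 126 CPM per kb, against 87.1 and 27.4 in DKO J2 replicate 2. The libraries come from 4 animals, and with 2 animals against 2 an exact two-sided permutation test cannot go below p = 0.333. The pair was picked after its values had been seen.

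The alpha and beta chains of I-A behaved differently in the J2 pulldown of control animals. Counts of H2-Aa per kb of exon were 0.589 and 0.632 times those of H2-Ab1 in control input, and 1.59 and 1.69 times in control J2. In control K1 the ratio was 0.646 and 0.850. In DKO it was 0.802 and 0.829 in input, 0.642 and 0.810 in J2 and 0.508 and 0.585 in K1. Only in the control J2 libraries did H2-Aa exceed H2-Ab1 per kb among the 12 libraries. Whether a ratio crosses 1 depends on the exon lengths, 3798 bases for H2-Aa and 2568 for H2-Ab1 with all annotated exons joined. The change of a ratio between libraries does not. In CPM, without length, H2-Aa also exceeded H2-Ab1 elsewhere, as in DKO input at 266 and 234 against 217 and 197, though not in control input. The ratio of H2-DMa to H2-DMb1 had group means of 0.296 to 0.465.

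**Figure D3:**
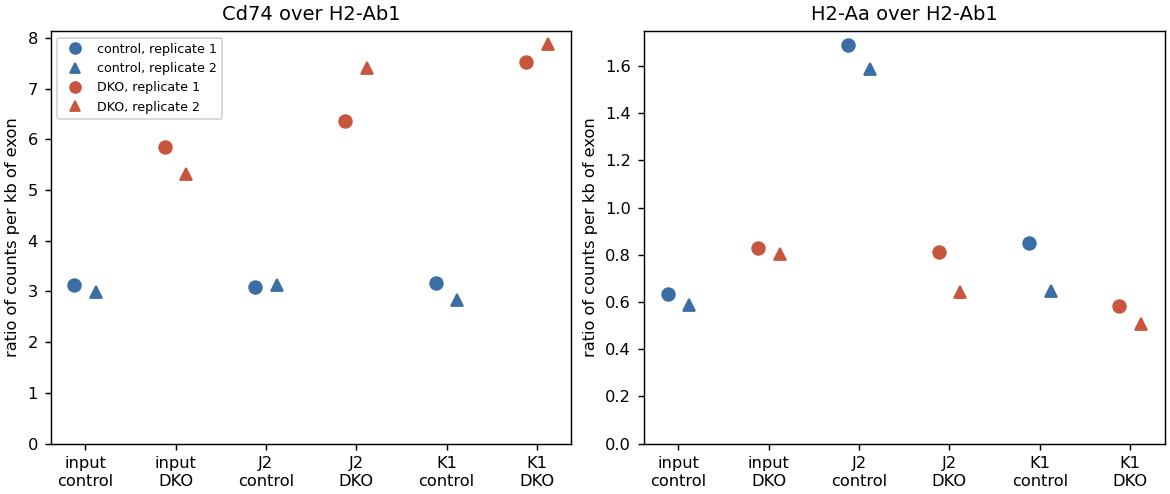
Ratio of counts per kb of exon within each library, Cd74 over H2-Ab1 on the left and H2-Aa over H2-Ab1 on the right, both axes starting at 0. On the left the control libraries lie between 2.84 and 3.16 and the DKO libraries between 5.31 and 7.88; on the right the 2 control J2 libraries stand at 1.59 and 1.69.

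Per kb of exon, the order of levels in control input was Cd74 at 878 ± 102 CPM per kb (SD, n = 2), H2-Ab1 at 286 ± 24.3, H2-Aa at 175 ± 23.6, H2-Eb1 at 121 ± 7.28, H2-DMb1 at 37.3 ± 1.21, H2-DMa at 15.6 ± 2.91 and Ciita at 7.29 ± 1.47. The order was the same in DKO input, with Cd74 at 451 ± 61.1 CPM per kb and Ciita at 0.489 ± 0.049. Across groups, the neighbours in the order of the mean CPM of a gene that overlapped were mainly DKO groups: for H2-Aa, DKO input, DKO J2 and DKO K1 at 250, 135 and 124 CPM. For Cd74 only control input stood clear, at 1473 CPM against 773 in control K1, and from there each group overlapped the next.

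Pulldown against input asks whether a transcript is taken up by an antibody more than its abundance gives. Of the 7, Ciita alone was called in control J2, higher than in input by a log2 fold change of 0.81 ± 0.26 (adjusted p = 0.0474, edgeR), against 29.8% of the 15923 genes tested. In DKO J2 Ciita was again the one gene called, at 1.66 ± 0.29 (adjusted p = 0.008), against 25.7% of genes. Within each animal, Ciita was higher in J2 than in input by 0.71 and 0.91 on the log2 scale in the controls and by 1.91 and 1.23 in DKO. The control call was lost with the animals as a block (log2 fold change 0.82, adjusted p = 0.0546) and without TMM scaling (0.43, adjusted p = 0.242). Without control replicate 1 or 2, Ciita passed in neither genotype, at 0.93 and 0.74 in control and 1.63 and 1.499 in DKO. Its DKO value was 1.98 without DKO replicate 2 and 1.16 without DKO replicate 1, where 2 and 7 of the 7 were called against 42.1% and 46.0% of all genes.

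H2-Ab1 and Cd74 lay below input in control J2. The same-animal differences were -1.60 and -1.51 for H2-Ab1 and -1.62 and -1.44 for Cd74, while H2-Aa stood at -0.19 and -0.08 and H2-Eb1 at -0.16 and -0.07. None of these 4 was called in a fit that estimates 1 spread over the control and DKO libraries. The adjusted p was 0.131 for H2-Ab1 and 0.138 for Cd74 (edgeR). The 2 DKO animals went separate ways, with H2-Ab1 at -0.10 and -2.70 and Cd74 at 0.02 and -2.23. In control K1 0 of the 7 were called, against 39.8% of the 15908 genes tested; at an unadjusted p under 0.05 there were 2, H2-Ab1 and Cd74, and DESeq2 called 2. With the animals as a block these were called too, at log2 fold changes of -0.97 and -1.01. In DKO K1 0 were called, against 35.6% of genes, with 3 at an unadjusted p under 0.05 (H2-Aa, H2-DMb1 and Ciita) and 0 by DESeq2; the block called 2, H2-Aa and Ciita. Without DKO replicate 2 there was 1, H2-Eb1 at 1.26, against 36.4% of all genes, and without DKO replicate 1 there were 6, against 29.4%.

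The difference of enrichment between genotypes was called for 0 of the 7 in J2, where 2.71% of genes were called, and for 0 in K1, where 5.47% were. In both, 0 had an unadjusted p under 0.05 and DESeq2 called 0. The estimates were wide, as for H2-Aa in J2 at -0.73 ± 1.08 and Cd74 in J2 at 0.94 ± 0.99. For Ciita they were 0.85 ± 0.39 in J2 and 0.56 ± 0.51 in K1. Without DKO replicate 1 the count was 4 in J2 and 3 in K1, where 41.3% and 22.7% of all genes were called. Without DKO replicate 2 it was 3 and 2, where 27.6% and 10.1% were.

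**Figure D4:**
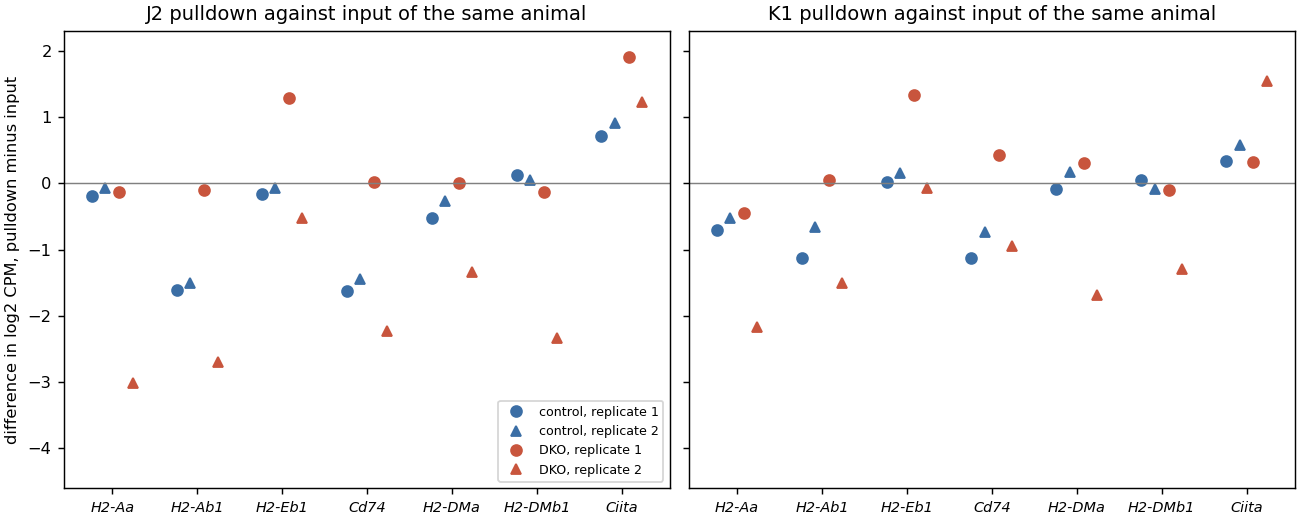
Difference in log2 CPM between the pulldown and the input of the same animal for each class II gene, J2 on the left and K1 on the right; the line at 0 marks equal levels. Ciita lies above 0 in all 4 animals with both antibodies, while H2-Ab1 and Cd74 lie below 0 in both controls, at -1.60 and -1.51 for H2-Ab1 in J2.

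Of the protein-coding genes that sit between the class II genes on chromosome 17, 4 could be tested in input. None was called lower in DKO. Of all genes tested, 17.1% were called lower and 18.8% higher, and 4 genes are too few to set against these shares. The span from H2-DMa to H2-Eb1 holds 11 protein-coding genes, among them Psmb9 and Psmb8, subunits of the immunoproteasome, and Tap1 and Tap2, the peptide transporter of the class I pathway. These 4 were named for their position. Tap1 had 154 and 101 CPM in control input and 366 and 220 in DKO input, without overlap, and rose by a log2 fold change of 1.24 ± 0.27 (adjusted p = 0.0115, edgeR). Tap2 stood at 0.61 ± 0.23, Psmb9 at 0.17 ± 0.21 and Psmb8 at -0.12 ± 0.16 in input, and none of the 3 passed.

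**Figure D5:**
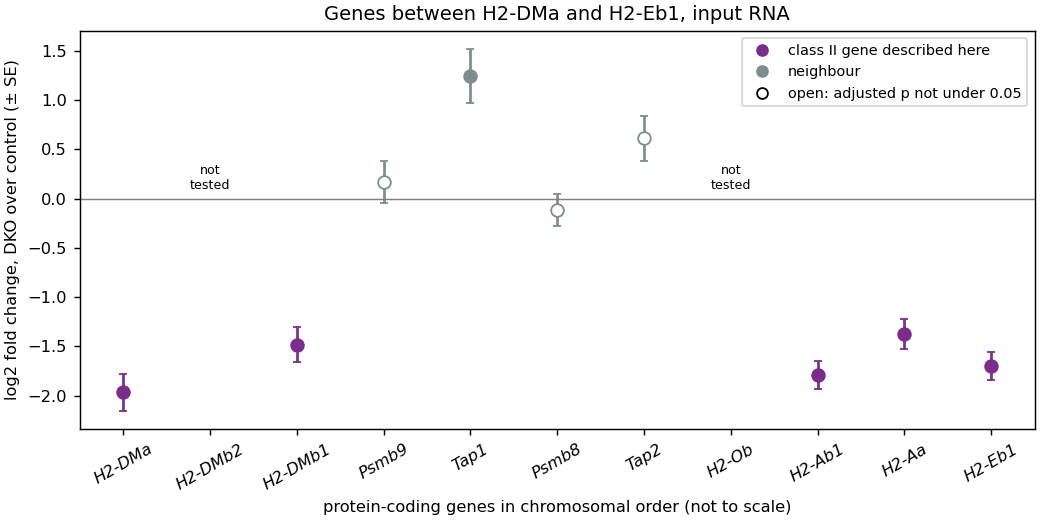
Log2 fold change of DKO over control in input RNA (± SE, edgeR) for the 11 protein-coding genes from H2-DMa to H2-Eb1 in chromosomal order; purple marks the class II genes described here and open points did not pass. The 5 class II genes lie between -1.97 and -1.37, the neighbour Tap1 lies at 1.24, and H2-DMb2 and H2-Ob had too few counts to test.

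A list of 23 further class II genes was read beside them: processing proteases, subunits of the X and Y box complexes, partner chains, ubiquitin ligases and costimulators. In input 16 could be tested, of which 8 rose and 0 fell, with a median log2 fold change of 0.50. Of all genes tested in input, 18.8% were called higher and 17.1% lower. Ctss, the protease cathepsin S that trims the invariant chain, had 75.3 and 68.7 CPM in control input and 186 and 169 in DKO input (log2 fold change 1.34 ± 0.13, adjusted p = 0.000368, edgeR). Legumain (Lgmn) rose from 18.6 and 18.5 CPM to 249 and 171, Sppl2a, which cuts the Cd74 stub from the membrane, from 124 and 104 to 265 and 225, and cathepsin B (Ctsb) from 319 and 296 to 515 and 460. Lgmn changed by 3.54 ± 0.20 on the log2 scale. Ifi30, the thiol reductase of the endosome, stood at -0.12 ± 0.12 and March8, a ligase that can mark class II molecules for turnover, at -0.07 ± 0.11, and neither passed. In J2 1 of 15 rose and 2 fell, against 6.02% of all genes higher and 6.16% lower, and in K1 3 of 16 rose and 3 fell, against 13.2% higher and 13.9% lower.

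Other chains of these complexes had few counts. H2-DMb2 had 0 to 5 counts per library, and H2-Oa and H2-Ob, the chains of the H2-DM inhibitor H2-O that is typical of B cells, had 0 to 2. H2-Ea-ps, the entry for the alpha chain of I-E, had 0 or 1 count per library. H2-Eb1 was thus read without counts of its alpha partner.

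Of 9 genes upstream of Ciita in the interferon-gamma pathway, 8 could be tested in input, and 4 rose and 1 fell, against 18.8% of all genes higher and 17.1% lower. Ifng itself had 0 to 2 counts in every library. Irf1, a transcription factor that acts on an inducible Ciita promoter, was the one that fell, from 155 and 119 CPM in control input to 80.3 and 75.3 in DKO input (log2 fold change -0.78 ± 0.15, adjusted p = 0.00710, edgeR). The receptor chain Ifngr1 rose by 0.71 ± 0.14 and the kinase Jak1 by 0.59 ± 0.13, while Ifngr2 (-0.24 ± 0.13), Jak2 (0.23 ± 0.14) and Usf1 (0.23 ± 0.13) did not pass. In J2 1 of 8 rose and 0 fell, against 6.02% and 6.16% of all genes, and in K1 1 rose and 1 fell, against 13.2% and 13.9%.

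Class II genes are also those of antigen-presenting leukocytes, so markers of other cells were read in the same libraries; of all genes tested in input, 18.8% were called higher and 17.1% lower. The B cell list of 10 summed to 2.39 to 2.81 CPM in control input and to 3.01 to 3.502 in DKO input. The 20 myeloid and dendritic markers summed to 20.7 to 21.2 CPM in control input and to 27.7 to 42.2 in DKO input; of 10 tested, 4 rose and 2 fell. Mrc1, from 0.567 ± 0.0138 to 9.34 ± 2.60 CPM, and Csf1r, from 0.571 ± 0.0934 to 3.79 ± 2.55, were among those that rose, with Cd14 and Cd68, and Tyrobp fell. Other markers of the list did not follow the rise. Mean CPM in control and DKO input was 1.22 and 0.853 for Itgam, 3.70 and 2.12 for Fcer1g, and 0.144 and 0.208 for Adgre1, which was near the floor. Itgax, a dendritic cell marker that intraepithelial T cells also carry, fell by 0.85 on the log2 scale from 4.72 ± 0.258 CPM (adjusted p = 0.0371, edgeR), and Zbtb46, of conventional dendritic cells, had 0.946 ± 0.0127 CPM in control input and 1.04 ± 0.294 in DKO input. Leukocyte markers shared by all lineages summed to 79.4 to 84.6 CPM in control input and 62.9 to 65.1 in DKO input, and 1 of 10 was called lower, Laptm5.

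T cell markers summed to 60.6 to 75.8 CPM in control input and to 41.4 to 44.9 in DKO input. Of 8 tested, 4 fell, against 17.1% of all genes called lower, and the median log2 fold change was -0.75. Their part in the class II result was not tested. Stromal and endothelial markers, 12 in all, summed to 7.32 to 9.73 CPM in control input and to 19.5 to 36.0 in DKO input. Of 6 tested, 2 rose, against 18.8% of all genes called higher. Of the epithelial markers 2 of 12 rose, 0 fell, and the median log2 fold change was 0.08. In the pulldowns the myeloid list summed to 18.6 to 21.0 CPM in control J2 and 31.5 to 64.2 in DKO J2. There 0 of 6 tested were called, against 12.2% of all genes. In K1 it summed to 16.2 to 18.2 CPM in control and 44.8 to 81.0 in DKO, where 6 of 10 rose, against 13.2% of all genes. The stromal and endothelial list summed to 14.2 to 33.8 CPM in control J2 and 44.4 to 204 in DKO J2. In K1 the sums were 11.5 to 50.0 and 93.3 to 230. Of 8 tested, 0 were called in J2, against 12.2% of all genes, and 2 rose in K1, against 13.2%. T cell markers overlapped between the genotypes, at 50.0 to 56.3 CPM in control J2 and 41.0 to 89.4 in DKO J2. In K1 they summed to 42.8 to 49.3 and 32.3 to 49.8. The part of these lists in the class II values was not tested.

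The genes whose levels followed the mean of the 7 most closely over the 12 libraries were, by Pearson r on log2 CPM among 9742 genes, Cyp2b10 (0.985), Cyp2c66 (0.984), March6 (0.984), Iqgap2 (0.982), Fbxo25 (0.980), Tmem19 (0.979), Fahd1 (0.975) and Slc22a4 (0.975). Cyp2b10, a drug-metabolising cytochrome P450, had 341 CPM on average in control input and 53.9 in DKO input. The 12 points come from 4 animals and share the genotype split and the uneven DKO pulldowns. Of the 7 themselves, H2-DMb1 followed their mean with r = 0.973, H2-DMa with 0.971, Ciita with 0.785 and Cd74 least, with 0.687.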

How the data were processed

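Per the labels, the deposited values are read counts per gene, 1 file per library, made without strand from random-primed, rRNA-depleted libraries with molecular identifiers. Per the submitters' processing notes, the tools were FastQC, STAR 2.7.10b, SAMtools 1.17, UMI-tools 1.1.4, HTSeq 2.0.2, DESeq2 1.40.1, edgeR 3.42.2 and deepTools 3.5.2, with the builds mm10 and GRCm38.p4; their roles, order and settings, and whether duplicates were removed by identifier, are not given in the sources used here. The 5 closing rows of each file, which name no gene, took 18.7% to 61.2% of the listed reads and were left out.

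The tests used edgeR 4.0.16 (R 4.3.3; filterByExpr with a count minimum of 10, TMM, quasi-likelihood test, Benjamini-Hochberg adjusted p under 0.05) over all genes. DKO was compared with control within input, J2 and K1 (4 libraries, 2 residual degrees of freedom). Pulldown against input in each genotype, and the difference between genotypes, were fitted on 8 libraries (4 residual degrees of freedom). The SE is the log2 fold change divided by the square root of F. CPM used 1 TMM scaling over 12 libraries and log2 CPM a prior count of 2. Levels per kb used the joined length of all GENCODE M21 exons of a gene. The order of levels between genes depends on these lengths. Identifiers matched gene names for 48058 of 48526 rows without the version. Transcripts were compared with blastn 2.17.0+, keeping matches of 100 or more bases at 97% identity or higher. The fits were tested on simulated counts with the same spread in every library, so that test does not cover the uneven DKO pulldowns.

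All 7 genes are named. From the lists, those named are at most the 6 with the highest mean CPM and the partners of a complex, and 8 genes most alike in pattern had a mean of at least 50 counts. The Tap and Psmb genes, the single markers of other cells and Ifng, and the ratios between chains, were picked outside that rule. The genes and lists were chosen with earlier results of these data known.

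The labels give the libraries of one animal one code, so the input and pulldowns of an animal pair. Their deviations from the group means correlated at 0.375 to 0.811 over 7527 genes. Alternatives were DESeq2 1.42.0, no TMM, no filter, all 12 libraries in one fit, thinning to 2220291 counts, the replicate block and leaving out each animal. Scaling removes any difference in total RNA pulled down, and no unspecific antibody library was analysed here.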

Additional observations from a re-analysis of the deposited data

Results flagged for a closer look

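H2-DMb1 in J2 moved in opposite directions in the genotypes: both controls were higher in the pulldown than in input (by 0.14 and 0.06 in log2 CPM) and both DKO animals lower (by -0.13 and -2.33). The difference of enrichment was -1.09 ± 0.61 on the log2 scale and did not pass the test of the difference (adjusted p = 0.293, edgeR). It was -2.46 without DKO replicate 1 and -0.21 without DKO replicate 2.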

How the results depend on the processing

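All 7 genes were lower in DKO input under every alternative run. The count called there stayed at 6 or 7 except in the fit of all 12 libraries (4, without H2-Aa, H2-Ab1 and Cd74). In J2, DKO against control, 1 was called after thinning and 0 to 7 with one animal left out. In K1 5 were called with DESeq2, 6 without TMM, 6 without the filter and 3 to 7 with one animal left out.

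For J2 against input in control the count was 2 without TMM, 2 without the filter, 0 in the fit of all 12 libraries, 0 after thinning and 0 to 4 with one animal left out. For J2 against input in DKO it was 3 without TMM, 2 without the filter, 0 after thinning and 0 to 7 with one animal left out. For K1 against input in control it was 2 with DESeq2, 2 without TMM, 2 without the filter and 0 to 3 with one animal left out; in DKO it was 3 without TMM, 3 without the filter and 0 to 6. The difference of enrichment gave 0 to 4 in J2 and 0 to 3 in K1 with one animal left out, and 0 under the other alternatives run.

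With the replicate number as a block, 5 genes were called in K1 DKO against control, where the numbers pair no animals (correlation of deviations -0.17, and 0.05 in input). Within genotypes, where the numbers pair libraries of an animal, the block gave 0 for J2 against input in control, 2 for K1 against input in control and 2 in DKO. Under the block Cd74 in K1, DKO against control, was -0.10. In the other comparisons the block kept the count of the 7 called within 1.5 times.

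Log2 fold changes that turned sign, the cause not being tested: Cd74 in J2, DKO against control, was 0.051 with DESeq2 and 0.095 after thinning. Cd74 in K1 was -0.33 without TMM, -0.10 without the filter and -0.072 in the fit of all 12 libraries. For K1 against input in control, Ciita was -0.081 after thinning, H2-DMa was 0.034 in the fit of all 12 libraries, and H2-Eb1 was -0.11 with DESeq2, -0.22 without TMM and -0.24 after thinning. H2-DMb1 in J2 against input in control was -0.27 without TMM. After thinning, the difference of enrichment was 0.070 for H2-Aa in K1 and 0.65 for H2-DMa in J2.

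With one animal left out, the ranges of those that turned sign were as follows. In J2, DKO against control: Cd74 -1.72 to 0.78. In K1, DKO against control: Cd74 -0.87 to 0.69. For J2 against input in control: H2-DMb1 -0.023 to 0.16. For J2 against input in DKO: H2-Eb1 -0.63 to 1.32, Cd74 -2.34 to 0.046, H2-DMa -1.47 to 0.034. For the difference of enrichment in J2: Cd74 -0.68 to 1.57, H2-Eb1 -0.39 to 1.43, H2-Ab1 -1.14 to 1.47, H2-Aa -2.88 to 0.012, H2-DMa -0.94 to 0.43. For K1 against input in control: H2-DMa -0.14 to 0.082, H2-Eb1 -0.038 to 0.072. For K1 against input in DKO: H2-Eb1 -0.22 to 1.26, Cd74 -1.09 to 0.34, H2-DMa -1.89 to 0.23. For the difference of enrichment in K1: Cd74 -0.068 to 1.34, H2-Eb1 -0.21 to 1.24, H2-Ab1 -0.67 to 0.94, Ciita -0.13 to 1.07, H2-Aa -1.61 to 0.16, H2-DMa -1.83 to 0.26.

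Depth limits the DKO pulldowns most: the shallowest library held 2220291 gene counts, with 10 of H2-DMa. Without TMM the median of all genes moved by as much as -0.38 on the log2 scale (J2 against input in control), and the higher share of the genes called moved from 52.4% to 42.1% in input, 49.4% to 32.7% in J2 and 48.6% to 27.4% in K1, DKO against control. Over the alternatives, the genes called in all ranged from 1430 to 6462 in input (5421 reported), 177 to 8635 in J2 (1606) and 1149 to 5819 in K1 (3487).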
